A study of Mus musculus with 6 samples.

Results

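Glycolysis and the genes that accompany it under hypoxia were examined as a set of 37 genes chosen by function: glucose transporters, the enzymes from hexokinase to pyruvate kinase, lactate production and export, the PFKFB and pyruvate dehydrogenase control enzymes, the pentose phosphate pathway and a group of hypoxia-linked target genes. A member was used when its reads summed to at least 10 over the 6 libraries. Of the 37 genes, 36 passed, among 11877 of 47643 genes in the count table, and the remaining one, the aldolase Aldoc, had 3 reads in all. The read rule used no difference between groups, but the genes were listed with earlier results of these data known.

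Glycolysis turns glucose into pyruvate and yields ATP without oxygen. Activated T cells take up more glucose and export much of the carbon as lactate, and the transcription factor HIF-1, which is stabilised at low oxygen and by T cell receptor (TCR) signalling, binds a short DNA element near many genes of glucose uptake, glycolysis and lactate handling. The pentose phosphate pathway branches from glycolysis and supplies NADPH and ribose.

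All 6 libraries came from splenic CD4+ T cells that were positive for both the Blue and the Red form of an Nr4a3-driven fluorescent Timer protein, in which new TCR signalling gives Blue and past signalling leaves Red. The mice were of the Tg4 Tiger Nr4a3-Tocky strain, so every group carried a transgenic TCR for a myelin basic protein peptide, the Timer transgene and an Il10-GFP reporter. All mice received 80 μg of the [4Y] peptide, then 24 h later 800 μg of isotype antibody (a pool of rat IgG1 and IgG2a), anti-PD1 or anti-Lag3, and 30 min after that 8 μg of peptide, and spleens were taken 4 h after the second peptide dose. Each of the 3 groups had 2 libraries, described as biological duplicates, and the study stained cells of replicate mice separately before sorting. Mice of both sexes were used in the study, and neither age nor sex was given per library. No group without peptide was analysed here, so each value compares one antibody with another in restimulated cells. A model with 1 TCR and 1 peptide limits how far values extend to other T cells.

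Total counts were 2107715 to 2648920 per library, at which 3 reads equal 1.11 to 1.44 CPM, in which counts are scaled to one library size. The presumed rRNA-derived gene Gm42418 held 17.4% to 21% of reads. Reads were taken from the 3′ end of transcripts, so CPM was not divided by length, and levels are compared here between samples rather than between genes. T cell markers (Cd3e, Cd4, Lck, Trac and others) summed to 2070 to 2120 CPM with isotype, 1990 to 2120 with anti-PD1 and 2110 to 2260 with anti-Lag3. All 10 were detected, but their directions were mixed. With anti-PD1 against isotype 6 of the 10 were lower, and 1 passed an edgeR adjusted p of 0.05, beside 0.901% of all genes. Cd4 was at 174 and 179 CPM with isotype and 131 and 150 with anti-PD1. Cd5 was at 42.4 and 41.5 CPM with isotype and 71.4 and 96.9 with anti-PD1. Nr4a3, whose promoter drives the Timer on which cells were sorted, was at 51.4 and 45.1 CPM with isotype, 29.7 and 29.4 with anti-PD1, and 40.9 and 36.8 with anti-Lag3. Its log2 fold change against isotype was -0.70 with anti-PD1 (edgeR adjusted p = 0.195) and -0.31 with anti-Lag3. The study reported higher Timer-Blue in responding cells with anti-PD1, the other direction, in a measure of protein and not of transcript. Pdcd1 lay between 12.3 and 17.1 CPM and Lag3 between 2.6 and 7.59 CPM over the 6 libraries, with log2 fold changes from -0.24 to 0.15 over both genes and the 3 comparisons. The antibodies act on the proteins, so these transcript levels do not check the treatment.

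Markers of other splenic cells were low and unequal between groups. The summed level of 12 B cell markers was 159 to 180 CPM with isotype, 72 to 79.1 with anti-PD1 and 98.7 to 158 with anti-Lag3, with Cd79a at 0 in every library. The 12 macrophage markers summed to 67.6 to 96.6, 27.3 to 44.6 and 41.2 to 45.1 CPM in the same order, and the 2 CD8 markers to 48.3 to 54.7, 29.8 to 34.5 and 32.7 to 33.7 CPM. Erythroid markers summed to 46.3 to 53.7, 21.1 to 50.3 and 24.9 to 50.9 CPM, with Epor at 0. Neutrophil markers were at 8.01 to 22.1, 7.36 to 7.67 and 1.49 to 5.48 CPM, with Ly6g, Elane and Mpo at 0. NK markers reached 4.24 CPM and dendritic cell markers 1.88 CPM at most, and the endothelial list, at 16 to 28.3 CPM, was almost wholly Pecam1, with Cdh5 and Emcn at 0. B cell, macrophage, CD8 and neutrophil markers and Pecam1 were thus highest in the isotype libraries. So were the NK markers, at 4.03 to 4.24 CPM with isotype and 1.11 to 2.11 CPM in the other groups. The part of all these markers in the metabolic results was not tested. In a bulk sample, fewer cells of a type and less RNA per cell cannot be told apart.

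Sequence upstream of the 3 members with the smallest p-values in any comparison, Slc2a1, Tpi1 and Hk2, is shown because these genes are described in most detail here and differ in the core of the HIF response element. The core was searched as ACGTG or GCGTG on both strands, so that CACGT and CACGC mark the same core on the other strand. The palindromic E-box CACGTG holds 1 core on each strand. Sequences are from the RefSeq promoter table for GRCm38.p6 and are printed 5′ to 3′ on the gene's strand, limited to the stretch without annotated exons, with cores in capitals. The Slc2a1 stretch is at chr4:119108495-119108710 on the plus strand, the Hk2 stretch at chr6:82774455-82774704 on the minus strand and the Tpi1 stretch at chr6:124814297-124814408 on the minus strand.
Slc2a1: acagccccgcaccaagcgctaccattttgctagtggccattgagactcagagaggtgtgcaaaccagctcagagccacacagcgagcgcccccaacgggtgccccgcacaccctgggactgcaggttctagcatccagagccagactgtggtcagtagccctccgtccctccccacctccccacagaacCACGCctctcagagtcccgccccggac
Hk2: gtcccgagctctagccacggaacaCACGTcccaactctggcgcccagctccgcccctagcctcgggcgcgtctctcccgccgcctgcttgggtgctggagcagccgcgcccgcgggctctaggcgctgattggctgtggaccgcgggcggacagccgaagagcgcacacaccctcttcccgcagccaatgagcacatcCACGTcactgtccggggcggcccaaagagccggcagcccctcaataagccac
Tpi1: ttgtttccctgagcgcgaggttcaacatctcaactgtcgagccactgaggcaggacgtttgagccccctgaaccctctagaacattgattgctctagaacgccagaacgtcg
The Hk2 stretch held 2 cores and the Slc2a1 stretch 1, with another core of Slc2a1 lying across the boundary with an annotated exon. The Tpi1 stretch held none, nor did the whole 300-base window of that gene. Windows from 250 bases before to 50 after the start were found for 35 of the 37 members. A core was present in at least 1 window of 32 of these 35 genes (91.4%), against 69.0% of the 8518 tested genes with a window and 46.7% of all 27025 genes in the table. At least 2 cores were present in 24 members (68.6%), against 40.1% and 22.9%. Some genes had several windows, which gives more room for a match. Counted by window, a core was in 80.0% of 50 member windows, 63.3% of 10793 for tested genes and 43.8% of 32851 for all. Gpi1, Tpi1 and Bpgm had no core, and the E-box was found in 5 members (14.3%), against 12.3% of tested genes. A match of letters describes these windows and shows no binding.

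None of the 36 members passed an adjusted p of 0.05 in any of the 3 comparisons (edgeR quasi-likelihood test with Benjamini-Hochberg adjustment over 11877 genes). The smallest adjusted p-values belonged to the glucose transporter gene Slc2a1 (0.0641) and the hexokinase gene Hk2 (0.114), both higher with anti-PD1 than with isotype, and in the other comparisons the smallest were 0.343, for the triosephosphate isomerase gene Tpi1 with anti-Lag3 against isotype, and 0.442, for Hk2 between anti-PD1 and anti-Lag3. Slc2a1 was 1.86-fold as high with anti-PD1 as with isotype and Hk2, the inducible hexokinase, 1.33-fold, whereas the best counted enzymes, Ldha and Pkm, differed by at most 1.10-fold between any pair of groups. The number called in the whole transcriptome was itself small. With anti-PD1 against isotype 0.901% of tested genes passed (107 genes, 75 higher and 32 lower), with anti-Lag3 against isotype 0.0421% (5 genes, 3 higher and 2 lower) and with anti-PD1 against anti-Lag3 0.303% (36 genes, 29 higher and 7 lower).

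At an unadjusted p under 0.05, 3 of 36 members passed with anti-PD1 against isotype, 2 of them higher and 1 lower, beside 8.12% of all genes tested. With anti-Lag3 against isotype 4 members passed, all higher, beside 5.96% of all genes. Between anti-PD1 and anti-Lag3 4 members passed, 1 higher with anti-PD1 and 3 lower, beside 6.53% of all genes. DESeq2 called 0 members in each comparison, with 3, 2 and 2 members under an unadjusted p of 0.05, and limma-voom called 0 as well, with 3, 3 and 4. The edgeR counts were close to what the share of all genes gives for 36 genes with anti-PD1 against isotype, and above it by fewer than 2 genes in the other comparisons.

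Groups of 2 libraries did not overlap in CPM for 14 members with anti-PD1 against isotype (9 higher, 5 lower), beside 37.4% of all genes. The count was 9 with anti-Lag3 against isotype (8 higher, 1 lower), beside 34.6%, and it was 12 between anti-PD1 and anti-Lag3 (4 higher with anti-PD1, 8 lower), beside 35.9%. These shares were near or below those of all genes. The median log2 fold change of the members was 0.06, 0.08 and -0.07 in the 3 comparisons, and that of all genes tested was 0 in each. Without isotype replicate 1 the first of these was -0.03. The median size of the members' changes without regard to sign was 0.19, 0.15 and 0.20, and that of all genes 0.26, 0.25 and 0.25. Members with a positive log2 fold change numbered 22 of 36, 21 of 36 and 13 of 36. The comparisons with isotype share both isotype libraries, so their values are given side by side and are not independent of each other.

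Per library, the members together took 0.361% and 0.389% of reads with isotype, 0.393% and 0.417% with anti-PD1, and 0.408% and 0.428% with anti-Lag3. Their summed level was 3760 and 3920 CPM, 3970 and 4110 CPM, and 3990 and 4210 CPM in the same order. Both isotype libraries were below the other 4 in either measure, and the isotype libraries also had the highest share of Gm42418 reads, 21% and 19.4%, beside 17.4% to 19.1%. The part of that share in the members' share was not tested. With 2 libraries against 2, an exact permutation test cannot give a p below 0.333, so no test of these sums was made.

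How small a change could have been seen depended on the reads behind each gene. The 18 members with a mean of at least 100 reads per library had 95% intervals of the log2 fold change with a median half-width of 0.29 in each comparison, and all 18 intervals lay inside a 2-fold change either way. Inside a 1.5-fold change lay 15, 14 and 12 of these 18 in the order anti-PD1 against isotype, anti-Lag3 against isotype and anti-PD1 against anti-Lag3. The 18 members with fewer reads had a median half-width of 0.85, 0.84 and 0.84, and 3, 8 and 5 of their intervals lay inside a 2-fold change. For the well counted members a change beyond 2-fold thus lay outside the interval, and for the others it often did not.

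**Figure D1:**
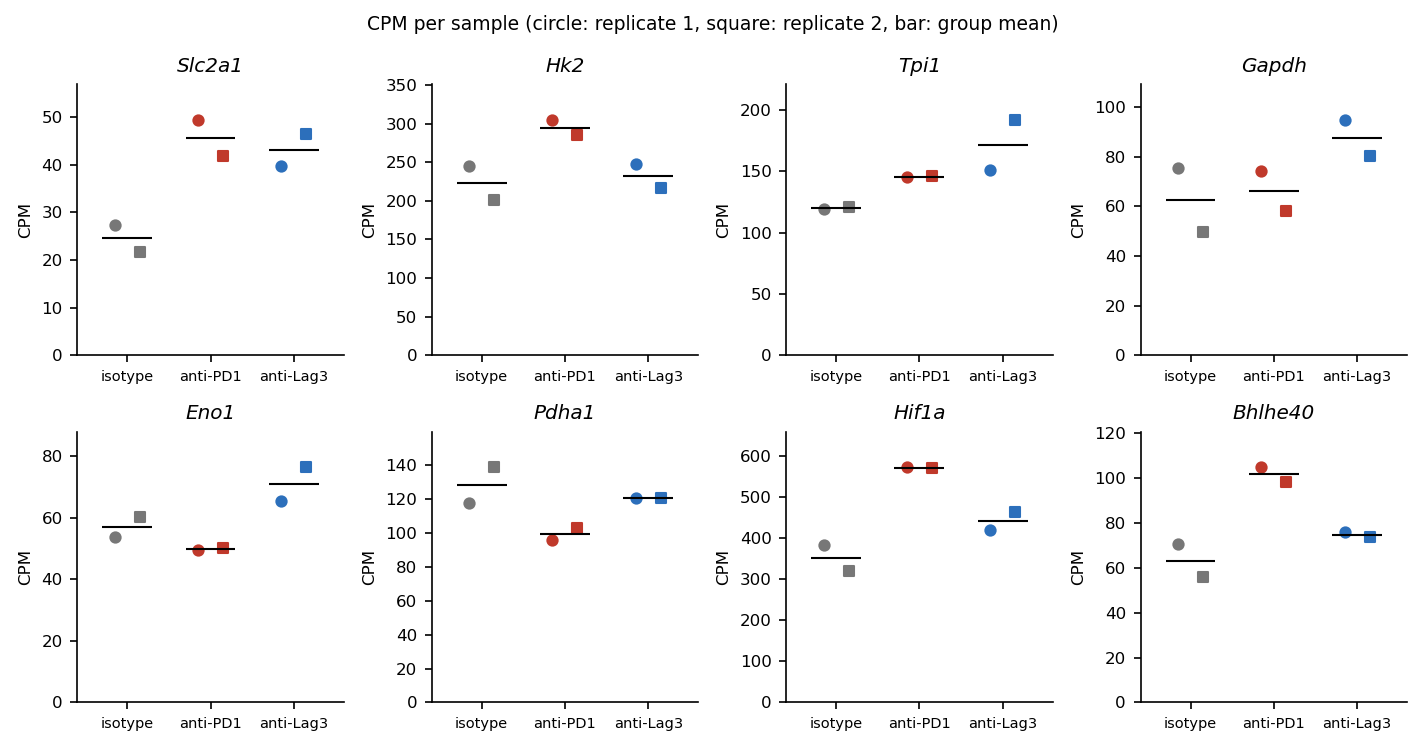
The plot shows CPM on a linear axis starting at 0 for Slc2a1, Hk2, Tpi1, Gapdh, Eno1, Pdha1, Hif1a and Bhlhe40, with a circle for replicate 1, a square for replicate 2 and a line at the mean of the 2 libraries of each group. For Slc2a1 the isotype points at 27.3 and 21.7 CPM lie below the other 4, and for Hif1a the 3 groups are apart.

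Glucose enters T cells chiefly through the transporters Glut1, encoded by Slc2a1, and Glut3, encoded by Slc2a3. Slc2a1 (ENSMUSG00000028645, chr4:119108711-119137983 of GRCm38, as for the positions that follow, plus strand) was at 27.3 and 21.7 CPM in the isotype libraries, 49.4 and 41.7 CPM in the anti-PD1 libraries and 39.6 and 46.4 CPM in the anti-Lag3 libraries. The anti-PD1 and anti-Lag3 groups both lay above isotype without overlap and overlapped each other. With anti-PD1 against isotype the log2 fold change was 0.89 (SE 0.24, 95% interval 0.40 to 1.39, edgeR unadjusted p = 7.0e-04, adjusted p = 0.0641), the 130th smallest p of all genes. With anti-Lag3 against isotype it was 0.82 (SE 0.24, interval 0.33 to 1.31, edgeR adjusted p = 0.535), and between anti-PD1 and anti-Lag3 0.08 (SE 0.23, interval -0.38 to 0.53, edgeR adjusted p = 0.986). In DESeq2 the smallest adjusted p of any member with anti-PD1 against isotype was 0.379. In edgeR the anti-PD1 value of Slc2a1 stood so near the threshold that the processing decided its side. It passed in edgeR when either anti-Lag3 library was left out (adjusted p = 0.0328 without replicate 1 and 0.037 without replicate 2), although neither library enters that contrast, and missed it as reported. It also passed with the replicate number as a block (edgeR adjusted p = 0.0491). Over all alternatives its adjusted p ranged from 0.0328 to 0.526. The transcript is joined on the same strand by the microRNA gene Mir1957a and on the other by Gm12867 and Gm12868, and whether counting used strand was not given in the sources used here.

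Slc2a3 was at 15.6 and 12.9 CPM with isotype, 11 and 8.18 CPM with anti-PD1, and 11.8 and 13.4 CPM with anti-Lag3. The anti-PD1 libraries were the lowest, and the anti-Lag3 libraries overlapped isotype. The log2 fold change was -0.57 with anti-PD1 (interval -1.37 to 0.23) and -0.17 with anti-Lag3 (interval -0.93 to 0.60), so an increase of the Slc2a1 size lay outside both intervals and a decrease of 2-fold or more lay inside the former only. The 2 transporters together were at 42.9 and 34.6 CPM with isotype, 60.4 and 49.9 CPM with anti-PD1, and 51.4 and 59.8 CPM with anti-Lag3.

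Upper glycolysis runs from hexokinase, which traps glucose as glucose 6-phosphate, to triosephosphate isomerase. Hk2 (ENSMUSG00000000628, chr6:82725025-82774454, minus strand) was at 245 and 201 CPM with isotype, 305 and 285 CPM with anti-PD1, and 248 and 217 CPM with anti-Lag3. The anti-PD1 libraries were above the other 4, and anti-Lag3 overlapped isotype. With anti-PD1 against isotype the log2 fold change was 0.41 (SE 0.12, interval 0.16 to 0.65, edgeR unadjusted p = 0.00178, adjusted p = 0.114), and 0.34 with anti-PD1 against anti-Lag3 (SE 0.12, interval 0.10 to 0.59, edgeR adjusted p = 0.442). With anti-Lag3 against isotype it was 0.06 (interval -0.18 to 0.31). Without isotype replicate 1 the anti-PD1 value was 0.56 with an edgeR adjusted p of 0.0451, and it also passed without anti-Lag3 replicate 1 (0.0333) or replicate 2 (0.0329), within a range of 0.0329 to 0.732 over all alternatives. Without isotype replicate 2 the value was 0.27. The constitutive hexokinase gene Hk1 was at 59.9 to 92.9 CPM over the 6 libraries, with log2 fold changes of -0.13, 0.13 and -0.26 in the 3 comparisons and overlapping groups throughout.

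Tpi1 (ENSMUSG00000023456, chr6:124810586-124814296, minus strand), whose enzyme interconverts the triose phosphates, was at 119 and 121 CPM with isotype, 145 and 146 CPM with anti-PD1, and 151 and 192 CPM with anti-Lag3. All 4 anti-PD1 and anti-Lag3 libraries lay above isotype, and the anti-Lag3 libraries above the anti-PD1 libraries. Anti-Lag3 gave a log2 fold change of 0.52 (SE 0.14, interval 0.23 to 0.80, edgeR unadjusted p = 6.6e-04, adjusted p = 0.343), the 23rd smallest p of all genes in that comparison. It was 0.28 with anti-PD1 (interval -0.01 to 0.57) and -0.24 for anti-PD1 against anti-Lag3 (interval -0.52 to 0.04). Anti-Lag3 replicate 2, at 192 CPM, weighed on this value: without anti-Lag3 replicate 1, which leaves replicate 2 as the lone anti-Lag3 library, the log2 fold change was 0.67 with an edgeR adjusted p of 0.0288. Without replicate 2 it was 0.34, and over all alternatives the adjusted p ranged from 0.0288 to 1. Spsb2 overlaps Tpi1 on the other strand.

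The other upper glycolysis genes differed less. Gpi1, the isomerase that makes fructose 6-phosphate, lay between 141 and 202 CPM, with log2 fold changes of 0.13, 0.21 and -0.08. Aldoa, the aldolase that splits the sugar, lay between 318 and 407 CPM, with log2 fold changes of 0.06, 0.09 and -0.03 and intervals from -0.26 to 0.32. Of the phosphofructokinase genes, which encode the committed step, Pfkp lay between 154 and 202 CPM and Pfkl between 35 and 54.6 CPM, and no log2 fold change of either was beyond 0.12 in size. Pfkm had only 39 reads and log2 fold changes of -0.95, -0.15 and -0.79, with intervals reaching -2.97 and 1.72. The 8 tested upper glycolysis genes had a median log2 fold change of 0.06, 0.08 and -0.05, beside 0 for all genes. Their sum was 1140 and 1160 CPM with isotype, 1250 and 1290 CPM with anti-PD1, and 1180 and 1320 CPM with anti-Lag3, with the isotype libraries lowest.

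**Figure D2:**
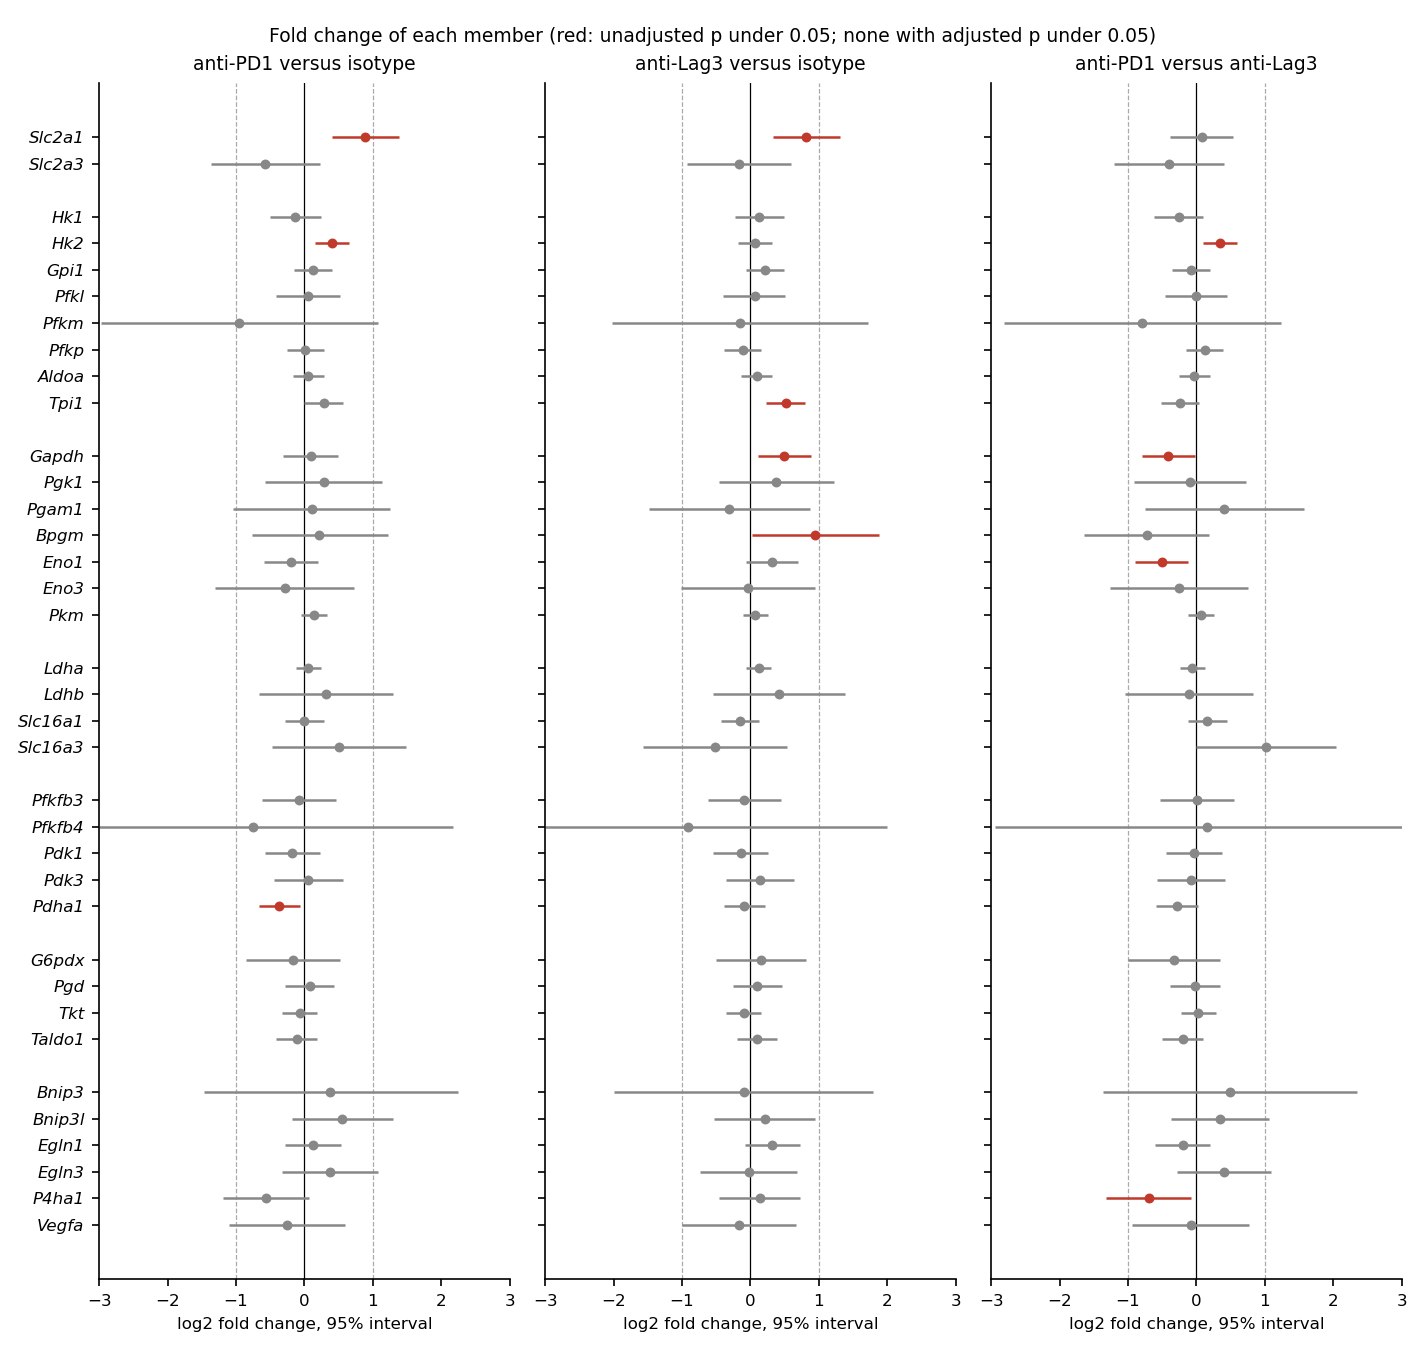
Points give the log2 fold change of each of the 36 tested members in each comparison from edgeR, and bars the 95% interval, ordered by role, with dashed lines at a 2-fold change and intervals beyond 3 cut at the edge (Pfkfb4). Most intervals of members with many reads are narrow around 0, and Slc2a1 with anti-PD1 lies at 0.89.

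Lower glycolysis runs from glyceraldehyde 3-phosphate dehydrogenase to pyruvate kinase and yields the ATP. Gapdh (ENSMUSG00000057666, chr6:125161715-125166467, minus strand) was at 75.4 and 49.5 CPM with isotype, 74.3 and 58.1 CPM with anti-PD1, and 94.9 and 80.2 CPM with anti-Lag3. The anti-Lag3 libraries were above the other 4, and anti-PD1 overlapped isotype. For anti-Lag3 against isotype the log2 fold change was 0.49 (SE 0.19, interval 0.11 to 0.88, edgeR unadjusted p = 0.0133, adjusted p = 0.69), 0.09 with anti-PD1 (interval -0.31 to 0.49) and -0.41 for anti-PD1 against anti-Lag3 (interval -0.79 to -0.02, edgeR unadjusted p = 0.0382, adjusted p = 0.736). Gapdh values are uncertain, because 120 other annotated genes, 118 of them pseudogenes, are nearly identical to part of its transcript end. Each matched at least 100 bases within the last 300 at 95% identity or more. Reads assigned to the 114 copies in the count table numbered 218, beside 1021 for Gapdh.

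Eno1 (ENSMUSG00000063524, chr4:150236721-150248879, plus strand), the main enolase gene, was at 53.7 and 60.4 CPM with isotype, 49.4 and 50.3 CPM with anti-PD1, and 65.4 and 76.5 CPM with anti-Lag3. The 3 groups did not overlap, with anti-PD1 lowest and anti-Lag3 highest. Anti-PD1 against anti-Lag3 gave a log2 fold change of -0.51 (SE 0.19, interval -0.90 to -0.13, edgeR unadjusted p = 0.0105, adjusted p = 0.52), -0.20 for anti-PD1 against isotype and 0.31 for anti-Lag3 against isotype. The single near-identical gene, Eno1b, had 5 reads, and the effect of this similarity on the Eno1 count was not tested. Eno3, the enolase of muscle, lay between 4.5 and 9.1 CPM with overlapping groups.

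Bpgm, whose enzyme makes 2,3-bisphosphoglycerate, was at 5.18 and 7.65 CPM with isotype, 9.1 and 6.13 CPM with anti-PD1, and 9.7 and 15.2 CPM with anti-Lag3. Only the anti-Lag3 libraries lay apart from the isotype libraries, at a log2 fold change of 0.95 (SE 0.46, interval 0.02 to 1.88, edgeR unadjusted p = 0.0463, adjusted p = 0.818). Pkm, the pyruvate kinase gene, lay between 695 and 803 CPM and had log2 fold changes of 0.14, 0.07 and 0.06, all intervals lying between -0.12 and 0.33. Pgk1 lay between 6.44 and 13.5 CPM and Pgam1 between 3.83 and 10.2 CPM, with isotype replicates at 13.2 and 6.44 CPM for the former and 9.42 and 4.03 CPM for the latter, so that the isotype pair spanned nearly the whole range. The 7 lower glycolysis genes had a median log2 fold change of 0.11 with anti-PD1, 0.31 with anti-Lag3 and -0.26 for anti-PD1 against anti-Lag3, beside 0 for all genes, and 2 of the 7 (Gapdh and Bpgm) were under an unadjusted p of 0.05 with anti-Lag3.

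Lactate dehydrogenase converts pyruvate to lactate, which leaves the cell through the monocarboxylate transporters MCT1 (Slc16a1) and MCT4 (Slc16a3). Ldha (ENSMUSG00000063229, chr7:46841475-46855627, plus strand), the member with the most reads (12251), was at 808 and 842 CPM with isotype, 826 and 894 CPM with anti-PD1, and 887 and 903 CPM with anti-Lag3. Its log2 fold changes were 0.06 (interval -0.12 to 0.24), 0.12 (interval -0.06 to 0.30) and -0.06 (interval -0.24 to 0.12). Ldhb, which favours the reverse reaction, lay between 5.64 and 9.28 CPM. Slc16a1 lay between 135 and 184 CPM with log2 fold changes of 0.00, -0.15 and 0.16. Slc16a3 was at 5.65 and 8.45 CPM with isotype, 9.1 and 11 CPM with anti-PD1, and 5.48 and 4.46 CPM with anti-Lag3. The anti-PD1 libraries were the highest and the anti-Lag3 libraries the lowest, and the log2 fold change between them was 1.02 (SE 0.51, interval 0.00 to 2.04, edgeR unadjusted p = 0.0504, adjusted p = 0.763), on 104 reads in all. The 4 genes of lactate handling had medians of 0.19, -0.02 and 0.05, beside 0 for all genes.

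The PFKFB enzymes set the level of the phosphofructokinase activator fructose 2,6-bisphosphate, and the pyruvate dehydrogenase complex, which the PDK kinases inhibit, admits pyruvate to the mitochondrial cycle. Pdha1 (ENSMUSG00000031299, chrX:160122209-160138413, minus strand), the E1 alpha subunit of that complex, was at 118 and 139 CPM with isotype, 95.8 and 103 CPM with anti-PD1, and 121 CPM in both anti-Lag3 libraries. The anti-PD1 libraries were below the other 4, and anti-Lag3 lay within the isotype range. The log2 fold change with anti-PD1 against isotype was -0.37 (SE 0.15, interval -0.67 to -0.07, edgeR unadjusted p = 0.0169, adjusted p = 0.429), against anti-Lag3 -0.28 (interval -0.59 to 0.02), and that of anti-Lag3 against isotype -0.09. Map3k15 overlaps the Pdha1 locus. The kinase genes Pdk1, at 48.9 to 62.4 CPM, and Pdk3, at 27.8 to 36.3 CPM, had no log2 fold change beyond 0.18 in size, and Pfkfb3, at 25.4 to 30.6 CPM, none beyond 0.09. Pfkfb4 had 15 reads in all and gives no usable value. The median over these 5 genes was -0.18, -0.09 and -0.03, beside 0 for all genes.

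The 4 pentose phosphate genes had small differences. G6pdx, the entry enzyme, lay between 12.7 and 26.1 CPM, Pgd, the 6-phosphogluconate dehydrogenase gene, between 69.1 and 86.9 CPM, the transketolase gene Tkt between 179 and 224 CPM and the transaldolase gene Taldo1 between 111 and 144 CPM. Their log2 fold changes lay between -0.17 and 0.08 with anti-PD1, between -0.09 and 0.16 with anti-Lag3 and between -0.33 and 0.02 for anti-PD1 against anti-Lag3. For Tkt, with 2933 reads, every interval lay between -0.35 and 0.28.

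The 6 hypoxia-linked targets are genes that HIF is known to induce. P4ha1, a collagen prolyl hydroxylase subunit, was at 28.7 and 18.9 CPM with isotype, 14.4 and 17.6 CPM with anti-PD1, and 26.6 and 25.6 CPM with anti-Lag3. The anti-PD1 libraries were the lowest, with a log2 fold change of -0.70 against anti-Lag3 (SE 0.31, interval -1.32 to -0.08, edgeR unadjusted p = 0.0285, adjusted p = 0.705) and -0.56 against isotype (interval -1.19 to 0.07). Bnip3l, a mitophagy receptor, was at 10.4 and 13.7 CPM with isotype, 20.6 and 15.1 CPM with anti-PD1, and 13.5 and 14.5 CPM with anti-Lag3, the anti-PD1 libraries being the highest at a log2 fold change of 0.55 (interval -0.18 to 1.29). The HIF prolyl hydroxylases, which mark HIF for degradation and are themselves HIF targets, gave log2 fold changes of 0.12 and 0.32 for Egln1 with anti-PD1 and anti-Lag3 against isotype, and 0.37 and -0.02 for Egln3. Vegfa, the angiogenic factor, lay between 6.69 and 16 CPM, and both of these extremes were anti-Lag3 libraries. Bnip3 had 39 reads. The medians over the 6 genes were 0.25, 0.06 and 0.13, beside 0 for all genes.

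**Figure D3:**
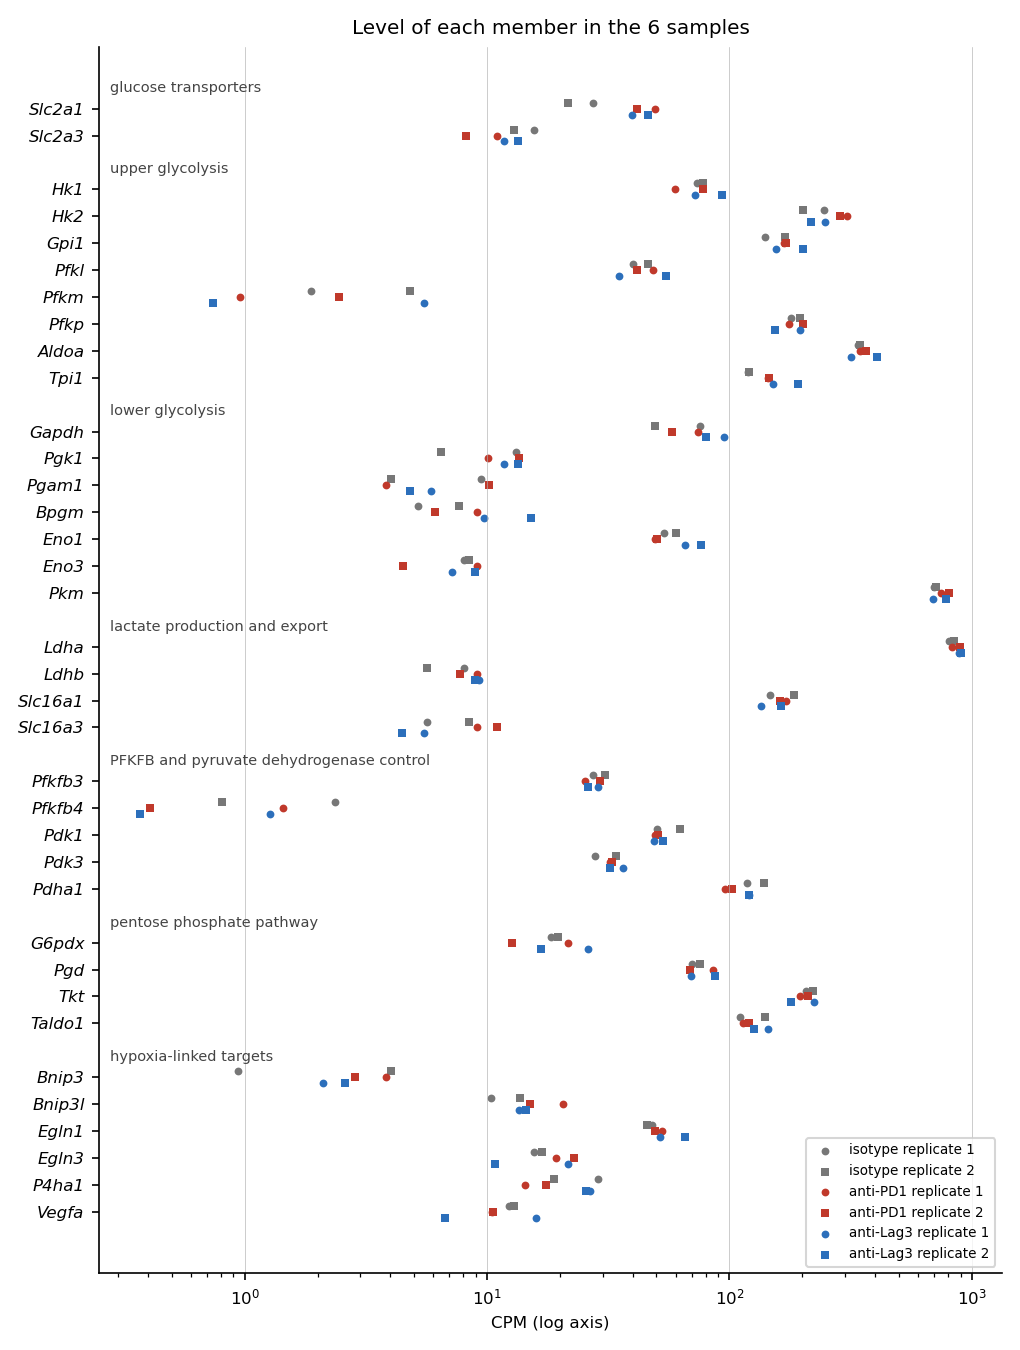
Points show the CPM of each of the 36 tested members in the 6 libraries on a log axis, ordered by role, with a circle for replicate 1 and a square for replicate 2 of each group. Points of members with few reads, such as Pfkm and Pfkfb4, scatter widely within a group, and those of Ldha, from 808 to 903 CPM, nearly coincide.

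Genes next to these pathways were read from a second list of 58 genes, of which 42 were tested. With anti-PD1 against isotype 2 of the 42 rose and none fell past the adjusted threshold, beside 0.901% of all genes. The 2 were listed under HIF pathway machinery and other hypoxia targets. The list was drawn up with earlier results of these data known, so this count is no test of the list. Hif1a (ENSMUSG00000021109, chr12:73901375-73947530, plus strand), the oxygen-regulated subunit of HIF-1, was at 384 and 321 CPM with isotype, 574 and 571 CPM with anti-PD1, and 421 and 464 CPM with anti-Lag3. The 3 groups did not overlap, with anti-Lag3 between the others. The log2 fold change was 0.70 with anti-PD1 (SE 0.11, interval 0.49 to 0.92, edgeR adjusted p = 4.1e-05), 0.33 with anti-Lag3 (SE 0.11, interval 0.12 to 0.54, edgeR adjusted p = 0.613) and 0.37 for anti-PD1 against anti-Lag3 (SE 0.10, interval 0.16 to 0.58, edgeR adjusted p = 0.18). Gm49321 overlaps Hif1a on the same strand and Gm15283 on the other.

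Bhlhe40, a transcription factor gene induced by hypoxia and by TCR signalling, was at 70.7 and 55.9 CPM with isotype, 105 and 98.5 CPM with anti-PD1, and 75.9 and 73.9 CPM with anti-Lag3. The anti-PD1 libraries lay above the other 4, at a log2 fold change of 0.69 against isotype (SE 0.17, interval 0.34 to 1.04, edgeR adjusted p = 0.0305). This call was lost in DESeq2 (adjusted p = 0.182) and in edgeR without isotype replicate 2 (0.497), anti-PD1 replicate 1 (0.329) or anti-PD1 replicate 2 (0.181), and its adjusted p ranged from 0.00866 to 0.497 over all alternatives. The directions within their lists were mixed: of the 6 tested HIF pathway genes 3 had a positive log2 fold change with anti-PD1 and 3 a negative one, and of the 9 other tested hypoxia targets 6 were positive and 3 negative. The largest of the 9 was that of Ndrg1, at 1.88 (interval 0.75 to 3, edgeR adjusted p = 0.111), on 114 reads in all.

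Ddit4, a stress-induced inhibitor of mTORC1, was at 51.4 and 78.9 CPM with isotype, 42.2 and 119 CPM with anti-PD1, and 52.7 and 40.1 CPM with anti-Lag3. The anti-PD1 libraries stood on either side of the isotype pair. The log2 fold change for anti-PD1 against anti-Lag3 was 0.82 (SE 0.26, edgeR adjusted p = 0.315), and it became 1.36 with an adjusted p of 0.00303 without anti-PD1 replicate 1, and 1.03 with 0.0102 without anti-Lag3 replicate 1, within a range of 0.00303 to 1 over all alternatives, and it was -0.14 without anti-PD1 replicate 2. Txnip, whose product restrains glucose uptake, was at 25 and 10.9 CPM with isotype, 17.7 and 20 CPM with anti-PD1, and 12.7 and 14.5 CPM with anti-Lag3, so that the isotype pair spanned the range of all 6. With anti-Lag3 against isotype the smallest adjusted p among the 42 neighbouring genes was 0.613, and between anti-PD1 and anti-Lag3 0.18, both for Hif1a in edgeR. Their median log2 fold change was 0.09, 0.10 and 0.00 in the 3 comparisons, beside 0.06, 0.08 and -0.07 for the members.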

How the data were processed

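RNA of sorted splenic CD4+ Timer-Blue+Red+ T cells was read by 3′ mRNA sequencing (Lexogen QuantSeq forward) in 6 libraries, 2 for each of isotype, anti-PD1 and anti-Lag3. The authors trimmed and aligned reads with STAR 2.5.2a to mm10 and deposited whole-number counts per gene from HTSeq, together with regularised log2 (rlog) values from DESeq2. The annotation release and the strand setting of the counting were not given in the sources used here. A further replicate batch that the study set aside was not used here.

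Counts were tested with the quasi-likelihood test of edgeR 4.0.16 (R 4.3.3) with TMM scaling, all 6 samples in 1 fit with group as the only term, a minimum of 10 reads over the samples (11877 genes) and Benjamini-Hochberg adjustment over all of them at 0.05. CPM used the TMM-scaled library size of tested genes. Intervals at 95% are the log2 fold change ± the t quantile times its SE and are approximate. Floors of 3 reads and the intervals cover these libraries only. P-values and intervals rest on a spread between samples that was mostly estimated across genes. Of 40.2 degrees of freedom in all, 37.2 came from that shared estimate. DESeq2 1.42.0, limma 3.58.1 (voom, and on the deposited rlog log2 values), other scalings and filters, a replicate block and omission of each library were alternatives. The procedure was tested on simulated counts. Gene names came from a table that named 47224 identifiers. Near-identical copies were sought with blastn 2.17.0 over the last 300 bases of each member's transcript (at least 95% identity over 100 bases) among annotated transcripts of GRCm38, and promoter windows came from RefSeq (GRCm38.p6).

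The members, roles, neighbouring genes and marker lists were chosen with earlier results of these data known, so no adjustment over the list alone, list test or score test was made, and the lists are described by counts and medians. All members are named by role. Values per sample are given for members past the threshold (of which there were none), for the 6 members with the smallest unadjusted p in any comparison, and for further members singled out after their values were seen (Slc2a3, Bpgm, Ldha, Slc16a3, P4ha1 and Bnip3l). Of the neighbouring genes, those past the threshold and Hif1a, Ddit4 and Txnip are named, and Ndrg1 was added after its value was seen. Aldoc was left out for low reads.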

Additional observations from a re-analysis of the deposited data

How the results depend on the processing

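Under the alternatives tried, the number of members past an adjusted p of 0.05 with anti-PD1 against isotype moved from 0 to 1 with no filter beyond 1 read (Slc2a1, adjusted p = 0.0482 in edgeR), to 2 with only the 4 samples of the comparison (Hk2, 0.0342, and Slc2a1, 0.0412), and from 0 to 2 over the omissions of 1 library. With anti-Lag3 against isotype it lay between 0 and 1 over those omissions (Tpi1 without anti-Lag3 replicate 1). In anti-PD1 against anti-Lag3 no alternative gave a count other than 0. The members' median log2 fold change was 0.01, 0.03 and -0.01 in the 3 comparisons by limma on the deposited rlog values, which are shrunken, and lay between -0.03 and 0.07 with anti-PD1 and between 0.04 and 0.13 with anti-Lag3 against isotype when 1 library was omitted. The number of all genes past the threshold was 175 with anti-PD1 against isotype with only the 4 samples, and 53 to 185 over omissions. With anti-Lag3 against isotype it was 1 by DESeq2, 2 by limma on rlog values, 0 by the newer edgeR method, 0 with filterByExpr, 20 with no filter beyond 1 read, 0 with only the 4 samples, 3 without Gm42418 and mitochondrial rRNA, and 0 to 19 over omissions. With anti-PD1 against anti-Lag3 it was 16 by DESeq2, 58 with no filter beyond 1 read, and 7 to 59 over omissions. Where an omission left 1 library in a group, that library was assumed to vary like the others. Apart from the smaller or larger sets of samples and genes tested, the cause of these moves was not tested.

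Of 510 values recomputed for 10 genes, 12 changed sign, none of them past the threshold either way. A test over the 3 groups at once, chosen after seeing the data, called 102 genes and 0 members, with edgeR adjusted p of 0.111 for Slc2a1, 0.18 for Tpi1 and 0.194 for Hk2. Replicates with the same number did not deviate together (r across 7508 genes of 0.04, 0.03 and -0.05 for the pairs of groups), but the study handled at least its set-aside samples as a batch, and nothing in the sources used here says whether the numbers mark batches, so a pairing was not established. With the replicate number as a block, 1 member was called with anti-PD1 against isotype (Slc2a1, edgeR adjusted p = 0.0491) and 144 genes in all. Depth limits the 18 members under a mean of 100 reads, for which a 2-fold change often lay within the interval.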
